A study of Arabidopsis thaliana with 4 samples.

Results

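LEC1 peaks that were found in both replicates and lay far from protein-coding genes were collected from developing Arabidopsis thaliana seeds. A replicate 1 peak entered when it overlapped a replicate 2 peak by at least 50% of the shorter one and its summit lay over 1000 bp from every protein-coding gene of the TAIR10 gene table. There were 534 such peaks, called far shared peaks here, among 3125 shared peaks and 13894 nuclear peaks of replicate 1. They met 534 different peaks of replicate 2, which had 3361 nuclear peaks in all.

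The series located LEC1 on chromatin by ChIP-seq, which sequences the DNA fragments that an antibody pulls down with a protein. All samples came from lec1-4 mutant plants that carried pLEC1:LEC1-FLAG, a FLAG-tagged LEC1 transgene driven by the LEC1 promoter, and the antibody was against FLAG. The 2 biological ChIP replicates each had an input library, which is chromatin of the same plants without precipitation. Seeds were taken at a mature stage per the labels, and at embryo expansion per the title, and the plants grew at 22 °C under a day of 16 h light and 8 h dark. Plants without the tag were not part of the samples, so signal that the FLAG antibody gives without LEC1 cannot be told apart from signal of LEC1-FLAG. Whole seeds hold embryo, endosperm and seed coat, and the cells behind a peak cannot be told apart.

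LEC1 is the B-type subunit of a seed form of the trimeric transcription factor NF-Y, and it works with ABI3, FUS3 and other regulators to set up storage accumulation, desiccation tolerance and dormancy. In the compact Arabidopsis genome, transcription factor peaks are mostly found close to transcription starts. Elements farther away, inside long gaps between genes, are known for some developmental regulators and hormone genes, and they can act on a gene on either side or on a non-coding transcript. A peak alone does not say which gene, if any, it acts on, so the nearest coding gene is given wherever it is not the gene named. The gene table gives no strand, so upstream and downstream of a gene could not be told apart.

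The libraries were close in total ChIP depth, with 4454133 tags used in replicate 1 and 4493099 in replicate 2. These totals are not split by chromosome. The replicate 2 list also held 292 summits off the nuclear chromosomes, which were left out here, while the replicate 1 list held none. Nuclear depth alone could therefore not be compared, and whether it differed was not tested. Replicate 2 gave far fewer nuclear peaks and lower enrichment. Its peak list therefore limits which peaks can be shared. Fold is the authors' ratio of the ChIP pileup, the number of extended fragments over the summit, to the local background from the input. Peaks are not replicates of a condition, and there are only 2 libraries, so groups of peaks are described by counts, medians, quartiles and 95% intervals for counting error, and no test was made between them.

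Far summits were found again in replicate 2 more often than near ones. Of the 1795 replicate 1 peaks with a summit over 1000 bp from coding genes, 29.7% were shared, with a Wilson interval of 27.7% to 31.9%. Of the 12099 peaks nearer to or inside coding genes, 21.4% were shared, with an interval of 20.7% to 22.2%, against 22.5% of all replicate 1 peaks. The share of far summits was accordingly 12.9% of all replicate 1 peaks, 17.4% of the 3361 replicate 2 peaks and 17.1% of the shared peaks. Far replicate 1 peaks also held a larger part of high folds: when all replicate 1 peaks were divided into 10 equal classes of rising fold, 35.2% of the far ones were in the upper 3 classes, against 29.2% of the nearer ones. Within these classes, the share found again was higher for far peaks in 8 of 10. In class 8, 44.4% of the far peaks were found again, with an interval of 37.9% to 51.1%, against 30.1% of the nearer ones, with an interval of 27.6% to 32.8%, which was the largest difference of the 10 classes. The intervals of far and near peaks overlapped in every class but 3 and 8. In class 10, the highest, the shares were 93.7% and 93.8%, so the most enriched peaks were found again about as often at both distances.

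**Figure D1:**
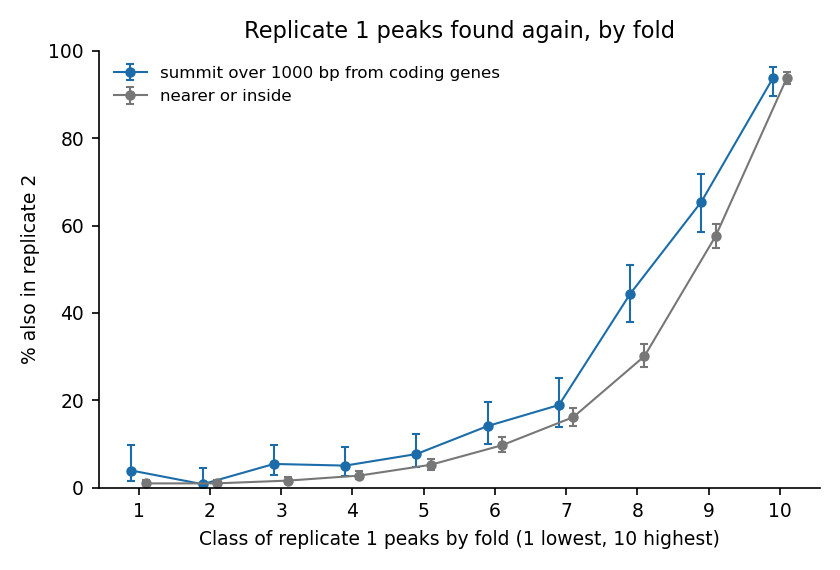
Share of replicate 1 peaks also present in replicate 2 (y axis, percent, with 95% Wilson intervals) for 10 equal classes of replicate 1 peaks by fold (x axis, class 10 the highest). Blue stands for summits over 1000 bp from coding genes and grey for nearer ones. Both lines climb with fold and meet at 93.7% and 93.8% in class 10.

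Far shared peaks were about as enriched as shared peaks near genes. In replicate 1 the pileup of the 534 peaks ran from 18 to 236 fragments with a median of 72, and the fold from 1.27 to 26.9 with a median of 8.21 and quartiles of 5.80 and 11.4. In replicate 2 the pileup ran from 15 to 157 with a median of 25, and the fold from 1.39 to 11.01 with a median of 3.45 and quartiles of 2.90 and 4.17. The 2591 other shared peaks had median folds of 8.50 and 3.39, so the medians of both kinds lay well within each other's quartiles in both replicates. Far replicate 1 peaks without a partner in replicate 2 were weaker, with a median fold of 3.54 and a median pileup of 31 over 1261 peaks. Since the share found again rose with fold, this difference follows from how peaks were divided and is no separate result.

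Replicate 2 gave the lower fold at nearly every far shared peak. Its fold was the higher one at 14 of them, or 2.62%, beside 2.35% of the other shared peaks. The median ratio of the replicate 2 to the replicate 1 fold was 0.434, with quartiles of 0.337 and 0.572, against 0.410 at the other shared peaks. As a description across peaks of the same libraries, the Spearman correlation between the folds of both replicates was 0.571 over the far shared peaks and 0.564 over the others. A −log10 q of at least 10 in both replicates was reached by 109 far shared peaks, or 20.4%, beside 21.7% of the others.

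The far peaks were narrower in replicate 1, with a median length of 433 bp against 575 bp for the other shared peaks, while in replicate 2 the medians were 290 bp and 283 bp. Summits of both replicates lay within 50 bp of each other in 65% of the far shared peaks and in 63.1% of the others. The local background differed little, at a median of 8.64 fragments against 9.13 in replicate 1 and 7.37 against 7.52 in replicate 2. The surroundings were nearly as rich in genes as those of other shared peaks: a median of 53 coding genes lay within 100 kb of a far shared summit, against 56. Only 13 far shared peaks had fewer than 20 coding genes in that window.

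**Figure D2:**
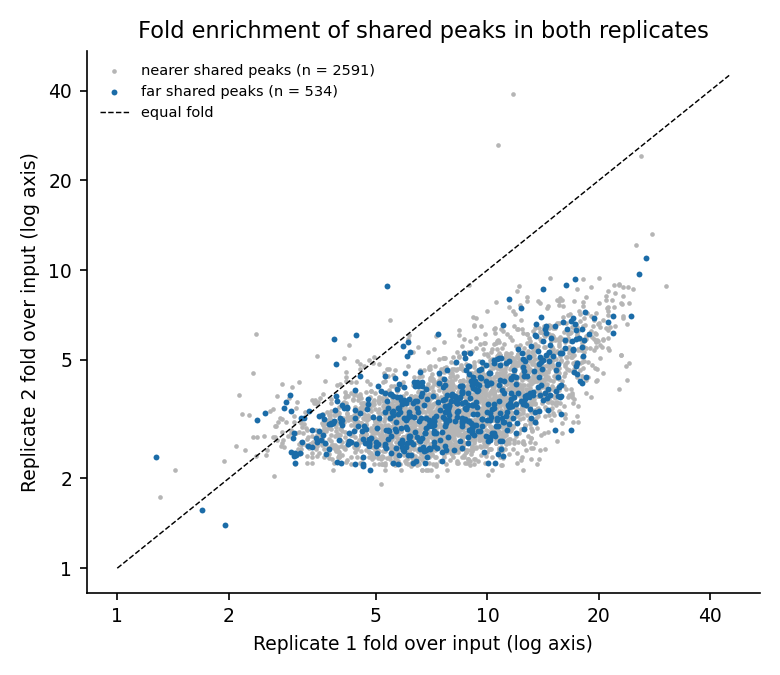
Fold over input of each shared peak in replicate 1 (x axis, log scale) and replicate 2 (y axis, log scale). Blue points are the 534 far shared peaks, grey points the 2591 nearer ones, and the dashed line marks equal folds. All but 14 blue points lie at or under that line, and they cover the same range as most grey points.

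Most of these peaks lay only a few kilobases from a coding gene. The median distance from the summit to the nearest coding gene was 1729 bp, with quartiles of 1292 and 2390 bp. Distances of up to 1500 bp held 204 peaks, 1500 to 2000 bp 119, 2000 to 3000 bp 138, 3000 to 5000 bp 59 and 5000 to 10000 bp 13, and a single peak lay farther away, at 24901 bp. Over the 534 peaks the Spearman correlation of fold with distance was 0.0439 in replicate 1 and 0.0147 in replicate 2, so neither fold rose or fell with distance to a visible degree. The share of far replicate 1 peaks found again was 30.5% in each of the first 2 classes and 32.2% in the third. It was 26.9% at 3000 to 5000 bp, 22.0% at 5000 to 10000 bp and 3.45%, or 1 of 29, beyond 10000 bp, with an interval of 0.611% to 17.2% for that last class. The median fold over all far replicate 1 peaks was also lowest in the last 2 classes, at 3.39 in both, against 3.94 to 4.52 nearer in.

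**Figure D3:**
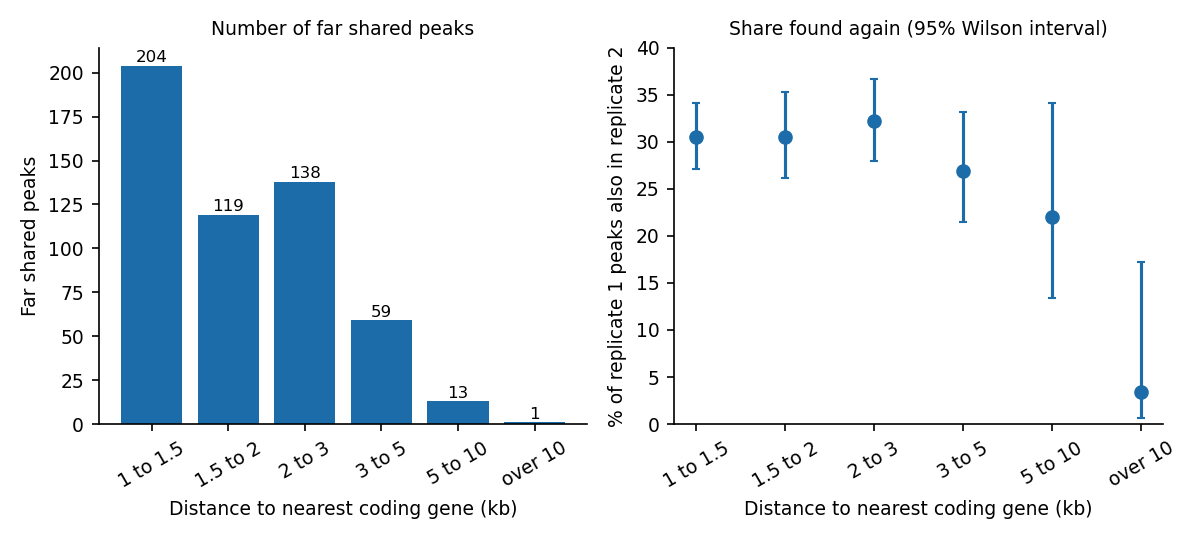
Number of far shared peaks (left, bars) and share of far replicate 1 peaks found again in replicate 2 (right, percent with 95% Wilson intervals) by distance from the summit to the nearest coding gene in kb. The 2 nearest classes hold 204 and 119 peaks, and the share falls to 3.45% in the class over 10 kb, which holds 29 replicate 1 peaks.

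The distance rule has a sharp edge. Just past it lay summits 1002 bp from AT1G29270, 1003 bp from KNAT3, a KNOTTED-like homeobox gene, and 1003 bp from PS2, with folds in replicates 1 and 2 of 7.18 and 2.65, 8.25 and 3.59, and 6.54 and 3.13. Just inside it lay summits 996 bp from SPL, a regulator of sporocyte formation, 995 bp from RPT2, a phototropism gene, and 993 bp from NADK1, an NAD kinase gene, with folds of 17.5 and 5.39, 6.63 and 3.86, and 4.60 and 2.81. Of the 534 replicate 1 peaks, 423 (79.2%) were over 1000 bp from coding genes along their whole length, and 111 reached closer with some base. The partner's summit in replicate 2 was also far from coding genes for 515 (96.4%), and nearer than the rule allows for 19.

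A summit can be over 1000 bp from both flanking genes only in a gap of over 2000 bp between coding genes. The table held 6538 such gaps, and 483 of them, or 7.39%, held a far shared peak. Among gaps of up to 3000 bp, 1.73% held one, among those over 3000 and up to 5000 bp 8.52%, and among those over 5000 and up to 10000 bp 13.3%. The share was 15.1% of the 430 gaps over 10000 and up to 20000 bp. Fewer of the longer gaps held one: 6 of 274, or 2.19% with an interval of 1.01% to 4.69%, held a far shared peak, and 17.2% of them held any far replicate 1 peak, against 34.0% of the preceding class. In 46 gaps there was more than 1 far shared peak, with at most 3. A further shared peak nearer to a gene lay in the same gap for 80 of the 534, or 15%. The chromosomes contributed similar shares, with 141, 83, 97, 88 and 125 peaks on chromosomes 1 to 5, or 15.6% to 18.0% of the shared peaks of each.

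The most enriched far shared peak lay beside AFP3, which belongs to a family of proteins that bind the abscisic acid (ABA) response factor ABI5. It spanned chr3:11386667-11387299 in replicate 1 (TAIR10), with the summit 2889 bp from AFP3 and 7641 bp from AT3G29580 on the other side. The pileup was 221 fragments in replicate 1 and 78 in replicate 2. The folds were 26.9 and 11.01, with Poisson intervals of the pileup of 23.5 to 30.7 and 8.73 to 13.7 that take the background as exact. By fold it ranked 3 among all 13894 replicate 1 peaks and 6 among the 3361 of replicate 2, near peaks included.

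The next peak, at chr3:2008276-2008835, had pileups of 236 and 68 and folds of 25.7 and 9.69. Its summit was 1821 bp from MYB108, a MYB transcription factor gene, and 3445 bp from A/N-InvC, an invertase gene, and it fell inside the lncRNA gene AT3G01855. By fold it ranked 5 and 7 among all peaks of the replicates. Between AT2G25690 and SK3 a peak on chromosome 2 had pileups of 148 and 69 and folds of 17.2 and 9.30. One between AT1G26620 and FBR12, which encodes the translation factor eIF5A, had pileups of 144 and 58 and folds of 16.3 and 8.95. A peak 2544 bp from AT1G78260 and 7643 bp from TSD2, a methyltransferase gene needed for cell adhesion, had folds of 14.2 and 8.64 and lay 307 bp from the tRNA gene AT1G78250.

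The lower ranks of these 10 peaks included further metabolic and transport genes. Between the catalase gene CAT2 and the aquaporin gene PIP3 the pileups were 149 and 51 and the folds 12.3 and 7.46, inside the lncRNA gene AT4G09075. Between KUP6, a potassium transporter gene, and SPDS2, a spermidine synthase gene, the summit was 1777 and 1831 bp from either gene, with pileups of 155 and 60 and folds of 18.4 and 7.22. The other 3 lay beside AT2G30660, AT1G64620 and AT1G13370, with replicate 1 folds of 11.4, 24.4 and 21.9 and replicate 2 folds of 7.97, 7.01 and 7.004. All 10 had a higher fold in replicate 1, and the intervals of both replicates overlapped in 1 of them, the peak beside AT2G30660.

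**Figure D4:**
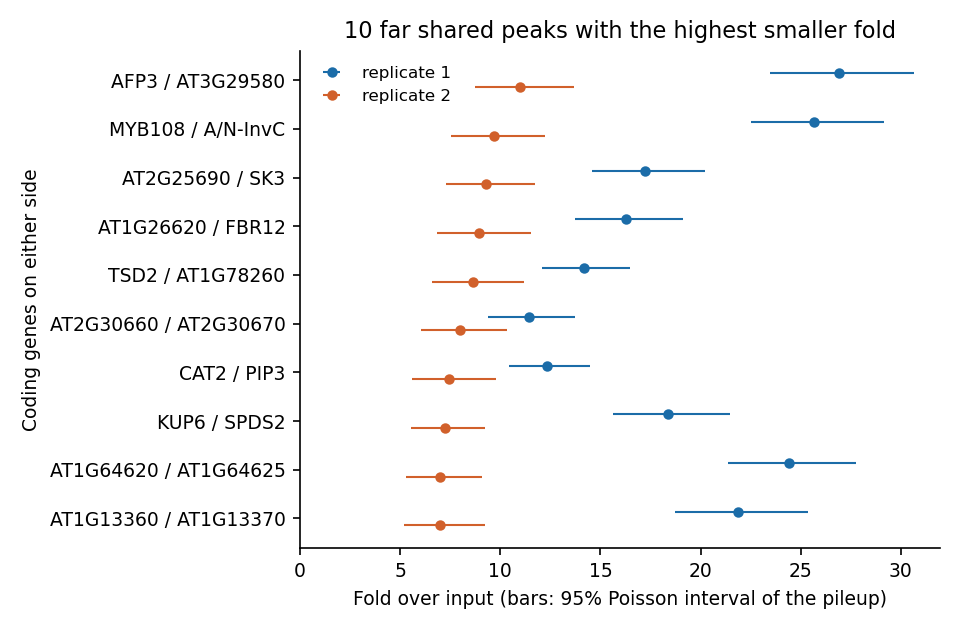
Fold over input (x axis) of the 10 far shared peaks with the highest smaller fold, named by the coding genes on either side. Blue points are replicate 1, orange points replicate 2, and bars are 95% Poisson intervals of the pileup with the background taken as exact. The peak beside AFP3 leads in both replicates, at 26.9 and 11.01.

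Gaps bordered by genes of chosen groups were examined next. Of the 10761 coding genes that border a gap of over 2000 bp, 947 (8.8%) border one that holds a far shared peak, and 508 (4.72%) are the nearest coding gene of one. Since the share of gaps with a peak grew with gap length up to 20000 bp and the groups were not matched on it, a group's count is given beside 8.8% as a description only. Unless stated, the peaks listed below are far shared peaks, and a gap can also hold peaks nearer to a gene or of a single replicate.

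Regulators of maturation bordered 3 such gaps, out of 10 regulator genes that border a gap of sufficient length, and in none was the regulator the nearest coding gene. The peak with the highest fold of the 3 lay 3372 bp from ABI3, the B3 regulator of ABA response in seeds, and 1050 bp from AT3G24640. Its pileups were 138 and 43 and its folds 17.5 and 4.47. A peak 4793 bp from FUS3, another B3 regulator of maturation, lay 1168 bp from AT3G26800 and 31 bp from the lncRNA gene AT3G05085, with pileups of 92 and 30 and folds of 9.47 and 4.12.

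The peak between LEC1 itself and PIP5K1, 2725 bp and 2287 bp from them, had pileups of 145 and 37 and folds of 7.55 and 2.45. The input gave a higher local background here, of 19.3 and 15.5 fragments in replicates 1 and 2, than the medians of 8.64 and 7.37 over the far shared peaks. The plants carried the LEC1 promoter in the transgene as well, and reads of the native and the transgene copy cannot be told apart. Storage protein, oil body and LEA genes, the products that accumulate during maturation, bordered none: 0 of 2, 0 of 1 and 0 of 0 genes with a gap of that length, out of lists of 10, 7 and 9. Very few genes of these lists could therefore have met the rule. Among NF-Y subunit genes it was 1 of 8, NF-YA4, through a peak that lay nearer to PHB.

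ABA and gibberellin turnover genes bordered such gaps in 6 of 12 cases, with 8 peaks. NCED enzymes make the committed step of ABA synthesis, and CYP707A enzymes inactivate ABA. NCED3 had 3 far shared peaks. At 1833 bp the pileups were 38 and 20 and the folds 3.37 and 2.91. At 4028 bp, and 2345 bp from AT3G14430, the pileups were 74 and 32 and the folds 8.74 and 4.63, and at 12102 bp, on the other side of the gene and nearer to CID9, they were 123 and 36 with folds of 11.9 and 4.38. Among these 3 far shared peaks, the one closest to NCED3 was the weakest in both replicates. The gap between NCED3 and CID9 held 5 replicate 1 peaks, of which only 1 was shared. NCED5 had a peak at 3771 bp with pileups of 102 and 29 and folds of 12.5 and 3.55, and NCED6 one at 3219 bp, and 2049 bp from AT3G24210, with pileups of 72 and 23 and folds of 9.17 and 3.52. The genes of the inactivating enzymes had 1 far shared peak each. CYP707A1 had folds of 3.44 and 2.73 at 3748 bp, and CYP707A3 folds of 3.73 and 2.51 at 1841 bp. Their gaps held 3 replicate 1 peaks each, with highest replicate 1 folds of 6.48 and 4.40. The CYP707A1 gap also held a further shared peak, nearer to a gene. GA3OX1, which makes active gibberellin, bordered a gap with a peak 14440 bp away that lay 1083 bp from CYCA2;3, with folds of 2.50 and 3.30. GA2OX2 and GA2OX4, further gibberellin turnover genes, were not on this list of 13 and were added after their values were seen. GA2OX2 had a peak at 2094 bp, with folds of 7.59 and 3.22, in a gap with 3 far shared peaks. GA2OX4 had a peak at 2026 bp, with folds of 8.41 and 4.10. Another, with folds of 13.8 and 4.39, lay 1674 bp from GA2OX4 and nearer to MYB112, at 1417 bp.

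Genes of embryo patterning and meristems bordered them in 5 of 17 cases. MP, the auxin response factor that sets up the embryo axis, had a peak at 3378 bp with pileups of 138 and 29 and folds of 15.8 and 4.13. PLT1, a root stem cell regulator, bordered a gap with a peak 12655 bp away and 1347 bp from UCNL, with folds of 10.2 and 4.17. CUC2, a boundary gene of the NAC family, bordered a gap with a peak 1924 bp away and 1149 bp from AT5G53940, with folds of 10.1 and 2.26. Lower folds were seen at STM, a homeobox gene of the shoot meristem, with 4.04 and 3.51 at 1038 bp, and at PHB, a class III HD-ZIP gene, with 4.51 and 3.33 at 1486 bp. Flowering MADS genes were at 1 of 10, a peak 4937 bp from SEP4 and 1025 bp from AT2G03690, with folds of 14.7 and 3.82. Auxin transport and signalling genes were also at 1 of 10, a peak 3157 bp from the efflux carrier gene PIN3 with folds of 8.29 and 3.20, which lay nearer to HB18.

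Other families were looked at because their members stood out among the flanking genes, so their counts were chosen after the values were seen. Clade A protein phosphatases, the negative regulators of ABA signalling, bordered a gap with a far shared peak in 3 of 4 cases. HAI1 had a pair of peaks, with pileups of 144 and 46 and folds of 15.7 and 5.27 at 1770 bp, and pileups of 169 and 49 and folds of 17.3 and 6.30 at 2682 bp, the latter nearer to AT5G59230, at 1899 bp. HAI2 had folds of 14.1 and 5.01 at 1578 bp. PP2CA shared a gap with AT3G11420 that held 4 shared peaks, 3 of them far shared peaks. These 3 lay 2915, 3654 and 4315 bp from PP2CA and nearer to AT3G11420, at 2486, 1747 and 1086 bp. Their replicate 1 folds were 17.3, 12.5 and 5.85 and their replicate 2 folds 4.78, 4.58 and 3.65. Over all peaks in that gap, the highest folds were 17.6 in replicate 1 and 5.44 in replicate 2. Of the 6 far shared peaks at phosphatase genes, 5 were above the median fold of far shared peaks in replicate 1, and all 6 in replicate 2. The family was chosen with its values known and 3 of the 6 share the PP2CA gap, so this count only describes them. The ABI5-binding protein genes were at 2 of 3: besides AFP3, AFP1 had a peak at 1432 bp inside the ncRNA gene AT1G69252, with pileups of 140 and 40 and folds of 16.2 and 5.46.

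DELLA genes, whose proteins repress gibberellin responses, were at 2 of 3. GAI had peaks at 2190 bp with folds of 8.36 and 3.73 and at 3178 bp with folds of 6.06 and 2.62, the latter nearer to AT1G14910, at 2069 bp. RGA1 had one at 4410 bp, and 3044 bp from AT2G01580, with folds of 11.7 and 3.19, and one at 1567 bp with folds of 5.34 and 8.84. The latter rests on a replicate 2 peak 3740 bp long whose highest summit lay 2049 bp from the replicate 1 summit and inside RGA1, so the folds of both replicates do not describe the same position there.

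Auxin response genes were counted in the same way. Aux/IAA genes, which encode repressors, were at 5 of 21, and auxin response factor genes were at 8 of 19. A peak between SHY2 and AXR3, adjacent Aux/IAA genes, had pileups of 174 and 53 and folds of 16.8 and 6.76, 1832 bp and 4557 bp from them. Folds of the remaining Aux/IAA peaks were 8.73 and 3.44 at IAA18, 4.42 and 6.07 at IAA19 and 7.34 and 6.09 at IAA29, the last of which lay nearer to AT4G32272, at 1292 bp. At IAA19 and IAA29 the partner peaks in replicate 2 were 1918 and 2742 bp long, with summits 423 and 389 bp from those of replicate 1 and 952 and 903 bp from a coding gene, so there too the folds of both replicates belong to different positions. Among the auxin response factors besides MP, ARF10 had the highest folds, 14.7 and 5.32 at 5582 bp and nearer to GATA13, at 2045 bp, while ARF6, ETT, ARF9, ARF16, ARF19 and ARF23 had replicate 1 folds of 3.62 to 8.69, and ARF6 and ETT alone among these 6 were the nearest coding gene. DFL1, an enzyme gene that conjugates auxin, had 3 peaks at 1177, 1382 and 2904 bp, with folds of 13.6 and 6.03, 5.51 and 2.77, and 15.1 and 5.14.

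Genes with an HB or HAT number, which are homeobox genes, were at 18 of 42, with 24 peaks and median folds of 7.56 and 3.12. The pair HB-7 and HB-12, HD-ZIP genes induced by ABA, had 2 peaks each, with replicate 1 folds of 12.6 and 3.82 at HB-7 and of 14.1 and 2.39 at HB-12, where the peak of higher fold was nearer to CYP78A9. HAT22 had 3 peaks, at 3584, 3058 and 4490 bp. It was the nearest coding gene of the first only, and the others lay nearer to XTH7, at 2636 and 1204 bp. Numbered MYB genes were at 17 of 104, NAC genes at 10 of 62 and WRKY genes at 6 of 51, with median folds of 10.9, 9.51 and 7.15 in replicate 1 and 3.97, 3.83 and 3.34 in replicate 2. The nearest coding gene of a far shared peak was one of these for 13 of 42 homeobox, 7 of 104 MYB, 7 of 62 NAC and 2 of 51 WRKY genes. Over all coding genes that border a gap of over 2000 bp, that share was 4.72%.

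**Figure D5:**
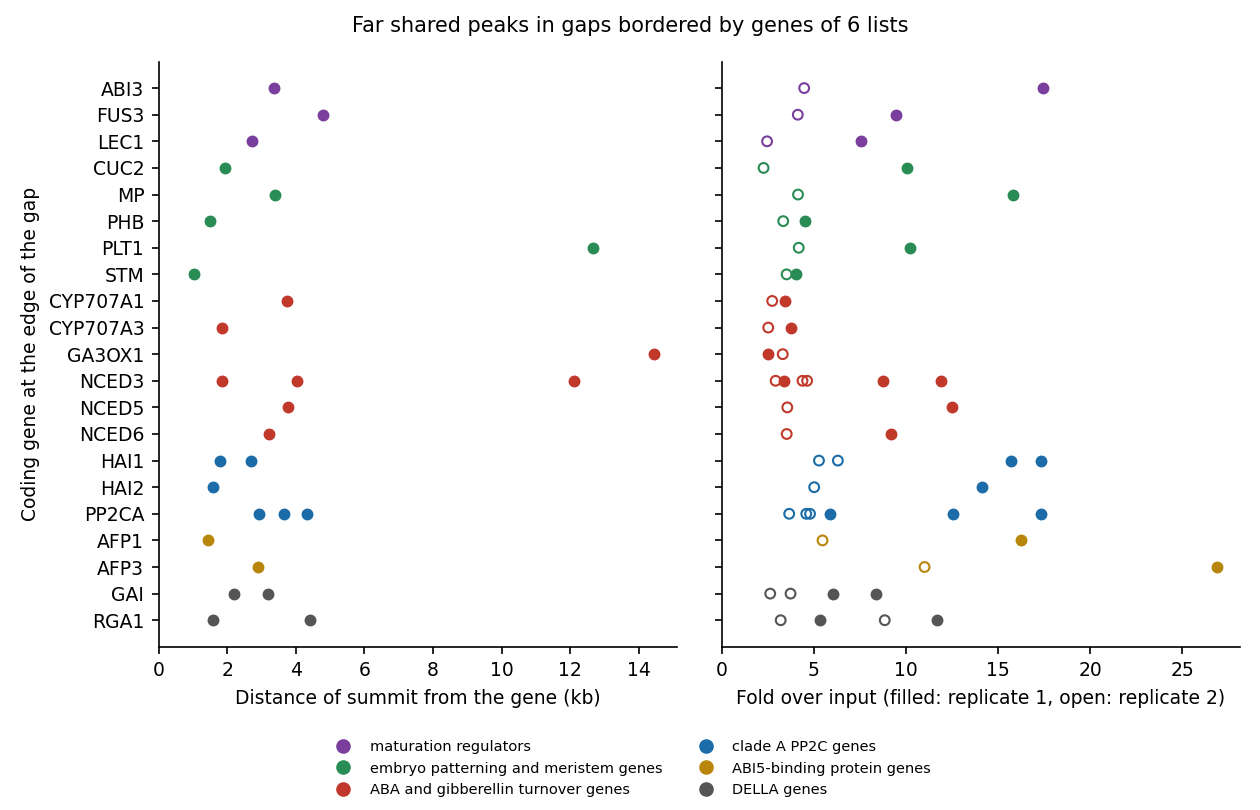
Distance of the summit from the flanking gene in kb (left) and fold over input (right, filled for replicate 1 and open for replicate 2) for far shared peaks in gaps bordered by genes of 6 groups. Colours stand for groups, of which the phosphatase, ABI5-binding protein and DELLA genes were chosen after their values were seen. The peak beside AFP3 has the highest fold in both replicates, and NCED3 and PP2CA have 3 far shared peaks each.

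Some far shared peaks came in runs. Another far shared peak lay within 10000 bp for 114 of the 534, or 21.3%. The longest run was 5 peaks over 17264 bp of chromosome 5, between PDV1, CRF3 and UBC10, with folds of 5.96 to 10.05 in replicate 1 and 2.54 to 4.05 in replicate 2. CRF3 is a cytokinin response factor gene, PDV1 a gene of plastid division and UBC10 a ubiquitin-conjugating enzyme gene. On chromosome 3, 4 peaks over 7623 bp flanked AT3G07350, with folds of 2.95 to 12.5 and 2.66 to 4.73. On chromosome 4, 4 peaks over 18979 bp ran from the ethylene synthesis gene ACS8 past MYB87 and HAT22 to the cell wall gene XTH7, with folds of 6.06 to 13.9 and 3.78 to 5.16. KNAT3 had 3 peaks in 1 gap, at 1003, 3868 and 4938 bp, with folds of 8.25 and 3.59, 16.0 and 5.28, and 8.69 and 3.61, the middle one being the strongest in both replicates.

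Genes of other types than protein-coding were near a minority. The summit was inside one for 55 of the 534, beside 14.7% of the 1261 far replicate 1 peaks that were not shared. As a share of the far shared peaks this was 10.3%, with an interval of 8.00% to 13.2%. A gene of another type lay within 1000 bp, inside included, for 131, or 24.5% with an interval of 21.1% to 28.4%, beside 31.4% of the peaks that were not shared. The other 403 were over 1000 bp from every annotated gene. Median folds were 8.94 and 3.38 inside such a gene, 7.77 and 3.62 outside but within 1000 bp, and 7.88 and 3.43 farther away.

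Long non-coding RNA genes made up most of these. In all counts by type, each peak was counted only for its nearest gene of another type. A second type at the same peak was not counted. The summit was inside a lncRNA gene for 39 far shared peaks, or 7.30%, beside 7.69% of the far peaks that were not shared. Besides the peaks near MYB108 and CAT2, the one 1290 bp from PRR5, a clock gene, fell inside the lncRNA gene AT5G03755, with pileups of 148 and 45 and folds of 17.2 and 6.60. Genes of the type misc_RNA held 11 summits, or 2.06%, beside 1.51% of the unshared ones. No far shared summit was counted inside a gene of the type pseudogene, 0 of 534. If a count of 0 is taken to allow up to 3, the share could be up to 0.562%. Of the 1261 unshared summits, 38 were counted inside one, or 3.01%. Within 1000 bp of a pseudogene the shares were 2.25% and 5.87%. The strongest of these 12 lay 216 bp from the pseudogene AT4G01530 and 4014 bp from NAC067, with folds of 16.5 and 6.37. Transcribed pseudogenes showed the same order, with 2 summits inside, or 0.375%, against 20, or 1.59%, among the unshared peaks.

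A microRNA gene was the nearest gene of another type, within 1000 bp, for 5 far shared peaks, or 0.936%, beside 1.11% of the unshared ones. The peak 526 bp from MIR156c, whose product targets SPL transcription factors that drive phase change, had pileups of 70 and 35 and folds of 8.92 and 4.78. The peak 844 bp from MIR399c, a microRNA gene of phosphate starvation, had pileups of 113 and 28 and folds of 13.2 and 3.89, and it lay between ZIP12 and AGL42. At MIR319b, whose product targets TCP transcription factors, the distance was 708 bp and the folds were 4.19 and 3.48. The remaining pair of peaks lay at MIR8184 in the gap between NET2C and AIL6, an AP2 gene of meristems and flowers. The first summit was inside MIR8184, with folds of 9.27 and 4.26, and the other was 508 bp away, with folds of 8.56 and 3.06.

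The 5 peaks farthest from coding genes had folds of 5.75 to 14.4 in replicate 1 and 3.05 to 4.10 in replicate 2. In replicate 1, 3 of them were above the upper and 1 was below the lower quartile of the far shared peaks, while all 5 lay between the quartiles in replicate 2. The farthest, 24901 bp from AT5G28237, was 51 bp from the ncRNA gene AT5G28262, with pileups of 74 and 27 and folds of 6.48 and 4.10. Next came a peak 6656 bp from RD22, a dehydration-responsive gene, and 11429 bp from the auxin synthesis gene YUC6, with pileups of 114 and 27 and folds of 14.4 and 3.72. The peaks at 6461, 6203 and 6126 bp lay beside AT1G29660, AT1G67340 and AT2G16676, with folds of 11.4 and 3.48, 11.4 and 3.05, and 5.75 and 3.29.

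A few peaks had the higher fold in replicate 2 or stood on a high background. The highest ratios of the replicate 2 to the replicate 1 fold were 1.85 at a peak inside the misc_RNA gene AT3G06365, 1.66 at RGA1, 1.53 between AT5G17600 and AT5G17610, 1.37 at IAA19 and 1.32 beside CYCA2;3. The first was 1 of 3 far shared peaks with a local background over 20 fragments. All 3 lay within 2660 bp on chromosome 3, in a region that also holds rRNA genes, with backgrounds of 61.5 to 123 fragments in replicate 1 and 67.1 to 82.5 in replicate 2. Their folds were 1.27 to 1.95 and 1.39 to 2.35, and the fold of 1.27 was the lowest of all 13894 replicate 1 peaks. Without these 3 the number of far shared peaks was 531 and the median folds were 8.25 and 3.46.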

How the data were processed

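ChIP-seq with an anti-FLAG antibody was done on 2 replicates, each called over its own input library. The build TAIR10 and the tools MACS2 2.1.0.20150420 and BWA 0.7.12 are named, with no roles, in the submitters' processing notes. Per the file headers, peaks were called per library and never pooled, at a q threshold of 0.05, with fragments extended to 187 bp in replicate 1 and 149 bp in replicate 2 and the larger input scaled down to the ChIP library. Replicate 1 used 4454133 of 4455659 ChIP tags and 7578894 input tags, and replicate 2 used 4493099 of 4495030 and 9646586. The inputs had a part in these calls only, and no separate input file was used here. The deposited pileup is a signal that counts the fragments over a summit. As deposited, each fold is a ratio of the pileup to the local input background, after 1 is added to either. The deposited lists also give −log10 of a p-value and a q-value for each summit. These values are the authors' own per peak, used for description, ranking and filtering, and values of the separately called replicates are set side by side only. Dividing (pileup + 1) by the fold gave the local background.

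Lines with equal start and end were joined, keeping the summit of highest pileup, on the 5 nuclear chromosomes. Distances came from the RefSeq gene table of assembly TAIR10.1, with 27444 coding and 10455 other nuclear genes, used for names and neighbours. Work was done in Python 3.11.15 with numpy 2.4.6, pandas 2.3.3 and scipy 1.17.1. The steps were checked with bedtools 2.31.1, which gave the same 3125 shared and 534 far shared peaks, and on simulated data, where 600 of 600 summits had the right distance and 300 of 300 planted shared peaks were found. The 95% intervals (Wilson for shares, exact Poisson for pileups) reflect counting error alone. A planned search for sequence elements was not done here.

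The peak set and the gene lists were chosen with earlier results of these data known. Peaks and genes were picked by rule: the 10 peaks whose smaller fold was highest, up to 5 peaks per other gene type and each one at a microRNA gene, each peak in a gap bordered by a gene of the 9 lists, the 5 farthest, the 5 with the highest ratio of replicate 2 to replicate 1 fold, 3 on either side of the distance limit, and the 3 longest runs. Of the peaks picked per other gene type, only some are named in the text. Those at transcribed pseudogenes, snRNA and snoRNA genes are not. DFL1, GA2OX2, GA2OX4, KNAT3 as a run, the phosphatase, ABI5-binding, DELLA, Aux/IAA, auxin response factor, homeobox, MYB, NAC and WRKY genes were added after their values were seen. Alternatives changed the summit, overlap, distance and q threshold, left out a replicate, and, chosen after seeing the data, left out peaks of high background or near any gene.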

Additional observations from a re-analysis of the deposited data

How the results depend on the processing

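Of 62 recomputed values, 48 stayed within 1.5 times the count or within the interval of the value given, and 14 moved. The number of far shared peaks, 534, was 880 over 500 bp and 211 over 2000 bp from coding genes, and 109 with a −log10 q of at least 10 in both replicates. It was 586 to 1795 when 1 replicate's list was used alone. The 541 peaks with any overlap, the 532 with the summit of highest fold, the 406 with 50% of both peaks and, both added after seeing the data, the 531 without high background and the 403 away from all genes were within 1.5 times. The median fold of 8.21 in replicate 1 was 8.68 with an overlap of 50% of both peaks, 13.8 at the stricter q and 4.22 in replicate 1 alone. In replicate 2 the median of 3.45 was 3.61 and 5.28 under the first and second of these, and 3.35 in replicate 2 alone. The share found again, 29.7%, was 22.6% with an overlap of 50% of both and 10.9% at the stricter q. The share inside a gene of another type was 10.1% to 13.4% with 1 replicate alone, and the share within 1000 bp of one was 24.6% to 29.4% with 1 replicate alone and 28.4% at the stricter q. Stricter settings and single lists select other peaks by construction. No paired analysis was possible because the values come from no test and the inputs that share the replicate numbers have no files of their own. With 4454133 and 4493099 ChIP tags, weak far peaks may be missed in either list.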
